A study of Sus scrofa with 2 samples.

Results

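The cytosolic ribosomal proteins are the proteins that, with the ribosomal RNAs, make up the small (40S) and the large (60S) subunit of the ribosome outside mitochondria. They were taken as the entries whose best protein match in the deposited annotation reads as a 40S or 60S ribosomal protein, or as ribosomal protein S or L with a number, leaving out mitochondrial ribosomal proteins and the kinases, methyltransferases and biogenesis factors that act on ribosomal proteins. The rule used names alone and no measured value, but it was chosen with earlier results of these data known. It found 82 of 12535 genes with reads, 35 of the small and 47 of the large subunit, which carried 56 distinct protein names. The names missed 28 other entries of cytosolic ribosomal proteins, RPLP0 and RPLP1 among them, which are left out below unless stated.

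RNA of biceps femoris muscle was taken on Day 1 after birth from piglets cloned by somatic cell nuclear transfer, in which the nucleus of a body cell replaces that of an egg. The abnormal cloned group was a pool of 3 piglets with developmental failure (large tongue, weak muscles and exomphalos), and the normal cloned group was a pool of 4 piglets by the methods and 3 by the sample labels. Each pool gave 1 library, so that no difference below has a replicate check, and tests on reads compare these libraries and not the conditions. All 3 abnormal and 2 of the normal piglets came from embryonic fibroblasts of a single male Large White pig, whereas ear fibroblasts of a different male gave the other 2 normal piglets, so that donor and phenotype cannot be fully told apart. Pairs of values below give the abnormal and then the normal cloned group.

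Every ribosome holds a copy of nearly every ribosomal protein, and cells make these proteins in matched amounts. Their mRNAs are short, abundant and begin with a terminal oligopyrimidine (TOP) tract, through which the mTOR kinase raises or lowers their translation together, with LARP1 as the protein that binds the tract. Muscle growth after birth depends on making ribosomes, and pig and other mammalian genomes also carry many intron-less copies of ribosomal protein genes, most of them pseudogenes.

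Reads on the ribosomal proteins were a smaller share of the abnormal than of the normal library. They took 167795 of 6.38 M uniquely mapped reads in the abnormal cloned group, or 2.63% (95% Wilson interval 2.62% to 2.64%, counting error only). In the normal cloned group they took 197972 of 6.52 M reads, or 3.04% (3.03% to 3.05%). The ratio of the shares was 0.866, a log2 ratio of -0.21 (-0.22 to -0.20). With the 28 entries that the names missed, the shares were 3.58% and 4.10%, a log2 ratio of -0.20. The small subunit entries took 1.23% and 1.49% of the reads, and the large subunit entries 1.40% and 1.55%. In a pooled tissue, fewer cells with many ribosomes and fewer ribosomal protein mRNAs per cell cannot be told apart.

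The whole libraries differed in ways that touch these values. RPKM is the number of reads per kb of transcript and per M unique reads. Over the 7493 genes with 10 or more reads in each library, the median of its log2 ratio (abnormal to normal) was 0.36. Transcripts of the mitochondrial genome took 36.0% and 46.1% of the reads. Among reads outside the mitochondrial genome the ribosomal proteins took 4.11% and 5.64%, a ratio of 0.730, so that this denominator widened the difference. Skeletal muscle was present in both pools, with ACTA1 (skeletal actin) at an RPKM of 42258 and 37387 and MYLPF (fast myosin light chain) at 31441 and 28773. Only 3 of 9 muscle markers, these and ACTN2 (1834 and 812), were matched by symbol.

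No ribosomal protein was a DEG with the authors' totals, while 2 (RPS24 and RPL34) were down-regulated with the all-gene median set to 0 or with TMM scaling, and RPS24 alone with totals without mitochondrial transcripts. With equal GAPDH there was again 0. To be a DEG, a gene needed a false discovery rate (FDR, Audic-Claverie test on the reads, Benjamini-Hochberg over all genes) no higher than 0.001 together with a log2 ratio of 1 or more in either direction. Of the 82 entries 0 were up-regulated, against 12% of all genes, and 0 were down-regulated, against 1.45%. At an unadjusted p under 0.05 there were 43 (52.4%), against 40.3% of all genes. Fisher's exact test also called 0 entries, against 1526 genes up-regulated and 180 down-regulated. So did edgeR's exact test, which called few genes at all, 243 up-regulated and 20 down-regulated with an assumed biological variation of 0.2, and 2 and 1 with 0.4. By the size of the ratio alone, 10 entries were higher, against 29.9% of all genes, and 7 were lower, against 11.8%, and each of these had under 50 reads. Without the demand on size, at an FDR of at most 0.001 alone, 29 entries were lower in the abnormal library, against 4.65% of all genes, and 6 were higher, against 18.5%. These shares depend on depth, as most of the ribosomal proteins have many reads. Among genes with 1000 or more reads in each library, 24 of 38 ribosomal proteins and 132 of 370 genes were lower at that FDR, and 5 and 152 were higher.

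The reads fell very unevenly on the 82 entries. There were 54 entries with at least 50 reads over both libraries, 23 of the small and 31 of the large subunit, with 47 protein names and no fewer than 96 reads in either library. The other 28 had at most 15 reads in a library, together 57 and 66 reads, and 22 of them had no annotated intron. Their ratios rest on a few reads and no fold is given for them. Values below are for the 54 unless stated otherwise.

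The ribosomal proteins were expressed over a wide range, in nearly the same order in both pools. RPKM ran from 22.1 to 1772 in the abnormal cloned group and from 21.0 to 2917 in the normal one, with medians of 584 and 682. Of the 100 genes with the highest RPKM, 19 and 23 were among the 82 entries. Across the 54 entries, Pearson's r between the pools was 0.98 and Spearman's rho 0.97 on log2 RPKM, a description over genes that share the same 2 libraries.

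**Figure D1:**
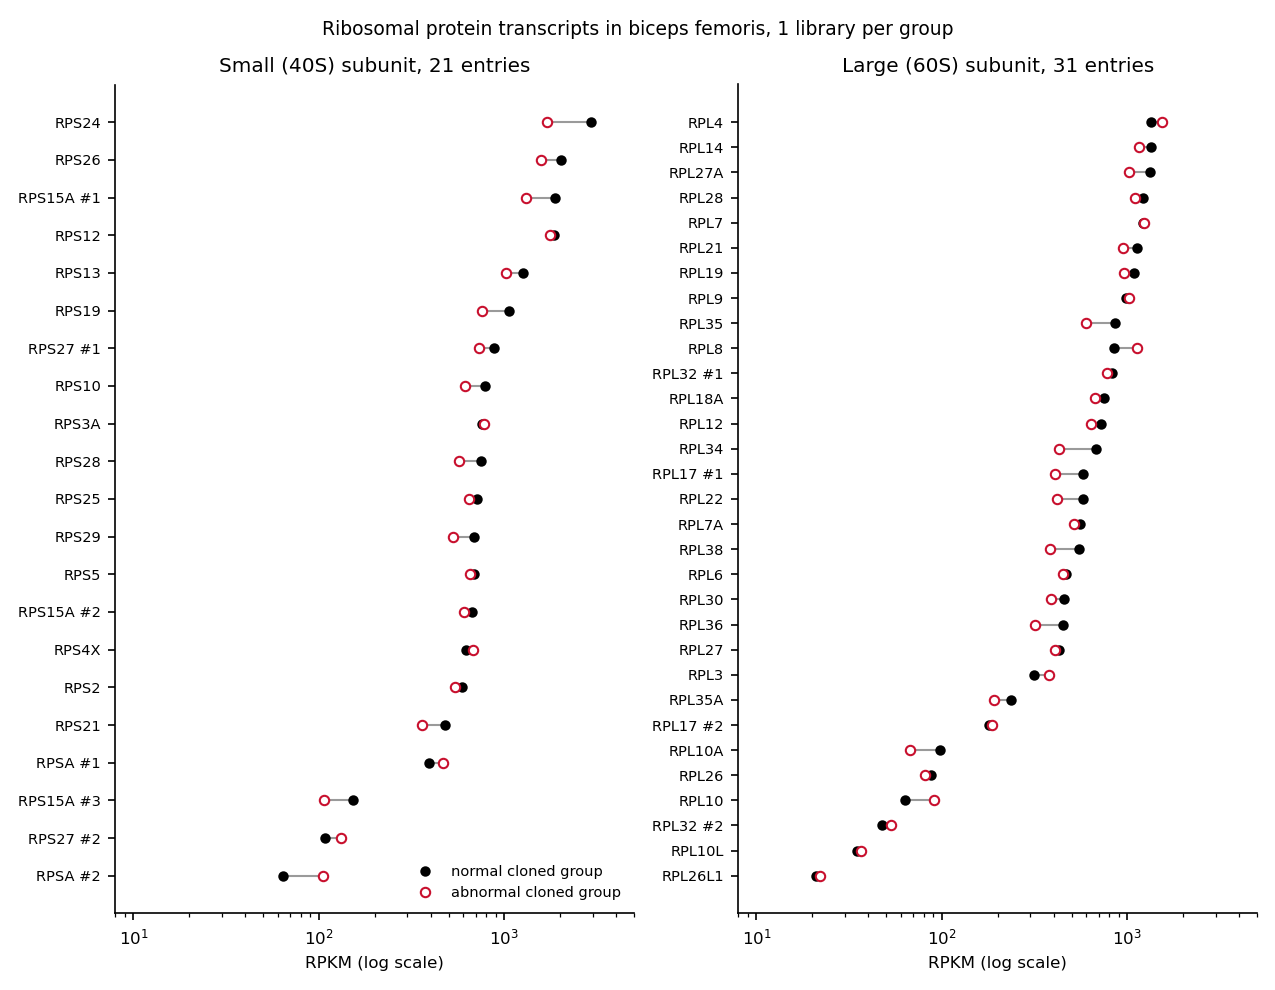
RPKM (log scale) of 52 ribosomal protein entries with at least 50 reads, in the normal (filled) and abnormal (open) cloned group, 1 library each; entries of the same protein are numbered by reads. Most open points sit to the left of the filled ones, farthest for RPS24 among the abundant entries (1694 against 2917), while RPL4, RPL8, RPL3 and RPSA sit to the right.

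The log2 ratios of the ribosomal proteins lay close together and below those of most genes. The median was -0.15 over the 54 entries, with quartiles of -0.39 and 0.03 and a range of -0.78 to 0.72, and -0.17 over all 82. Of the 54, 39 had a log2 ratio below 0 and 51 were below the median of all genes. Of the 6409 genes with at least 50 reads over both libraries, 1926 (30.1%) and 3082 were. These counts depend on depth. With 1000 or more reads in each library, 30 of 38 ribosomal proteins and 181 of 370 genes were below 0. Below the median of all genes were 37 and 264 of them. The 95% counting interval lay wholly below 0 for 35 of the 54 entries, wholly above 0 for 8 and held 0 for 11. It lay below the median of all genes for 47, above it for 1 and held it for 6. The interquartile range of the 53 entries with 100 or more reads in each library was 0.41, and that of the 2885 genes with as many reads was 0.88. With at least 1000 reads these were 0.31 for 38 entries and 0.72 for 370 genes, and the medians were -0.18 and 0.02.

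The medians of the subunits lay close together, and which was lower depended on the entries used. The 23 small subunit entries had a median of -0.15 with quartiles of -0.39 and -0.07, and the 31 large subunit entries a median of -0.15 with quartiles of -0.35 and 0.06. Over all 35 and 47 entries the medians were -0.15 and -0.18, a difference of 0.03 for small minus large. This difference was -0.061 with 10 or more reads in each library, -0.070 after length correction and -0.083 with other ribosomal protein entries added. The counting interval lay below 0 for 17 small and 18 large subunit entries and above 0 for 4 and 4. The read shares gave a larger difference, with a log2 ratio of -0.28 (-0.30 to -0.27) for the small and -0.14 (-0.15 to -0.13) for the large subunit. RPS24 alone held 10553 of 78252 and 18571 of 97190 small subunit reads. Whether the subunits differ between the conditions was not tested.

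**Figure D2:**
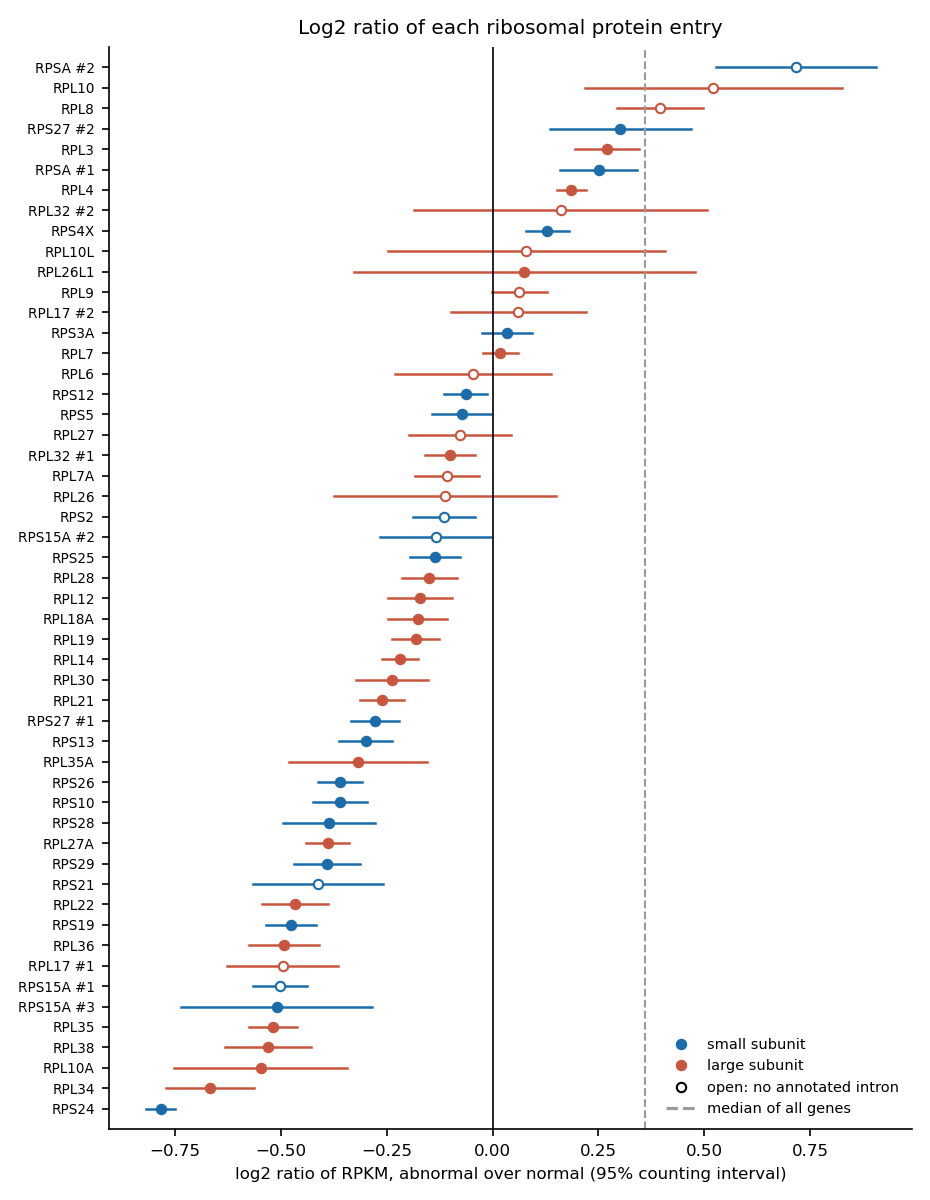
Log2 ratio of RPKM (abnormal to normal) with its 95% counting interval for 52 of the entries, by subunit, with open points for entries without an annotated intron. Both subunits are mixed along the whole range from RPS24 (-0.78) to the pseudogene-annotated copy of RPSA (0.72), and 49 of those drawn lie left of the dashed median of all genes (0.36).

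Those of the 82 entries with the most reads included RPL4, RPS24, RPL7, RPL14 and RPL27A. RPLP0, which the names missed, had more reads over both libraries than any of the 82. RPL4, which lines the tunnel through which the new protein leaves the ribosome, had 14172 and 12728 reads (log2 ratio 0.19, 0.15 to 0.22). RPL7 (9025 and 9102 reads, 0.02) differed by less than its counting error. RPL4 and RPL7 were higher in the abnormal library only with the authors' totals, and were lower under each of the 4 other scalings. RPL14 had 8170 and 9708 reads (-0.22). RPL27A had 5491 and 7350 reads (-0.39, FDR 1.18e-50). RPS24, RPL14 and RPL27A were lower in the abnormal library at an FDR of at most 0.001 and none reached a log2 ratio of -1.

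RPS24, a small subunit protein needed to process the precursor of 18S ribosomal RNA, stood lowest. Its entry (ENSSSCG00000010328, chromosome 14, 83839069 to 83846368 in Sscrofa9, a spliced transcript of 977 bases) had RPKM values of 1694 and 2917 (log2 ratio -0.78, -0.82 to -0.75), or was 1.72-fold lower in the abnormal library. Of the 82 entries it had the highest RPKM in the normal library, and RPS12 (1772) in the abnormal one. Unique reads covered 63.5% and 76.1% of its bases. Its log2 ratio passed -1 where the all-gene median was set to 0 (-1.14), with TMM scaling (-1.18) and with totals without mitochondrial transcripts (-1.03), and was then called down-regulated. Without RPS24 the log2 ratio of the read share of the ribosomal proteins was -0.16 in place of -0.21.

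The next lowest were 4 large subunit entries and a small subunit entry. RPL34 had 1190 and 1932 reads (-0.67, -0.77 to -0.56), and was also called down-regulated with the all-gene median set to 0 (-1.03) and with TMM scaling (-1.06). RPL10A had 322 and 481 reads (-0.55), but unique reads covered only 21.5% and 19.7% of its transcript. RPL38, a surface protein of the large subunit whose loss in mice disturbs the patterning of the axial skeleton, had 1303 and 1924 reads (-0.53). RPL35, at the tunnel exit, had 4135 and 6050 reads (-0.52). An S15a entry on the X chromosome had 264 and 384 reads (-0.51), with an interval of -0.74 to -0.28.

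The 6 highest were RPL8, RPL10, RPL3, both RPSA entries and an S27 entry, and 3 of these were annotated as pseudogenes. RPL3, next to the site where peptide bonds are formed, had 3082 and 2610 reads (0.27, 0.20 to 0.35). RPSA, the small subunit protein also known as the laminin receptor, had 2118 and 1819 reads at its spliced gene (0.25, 0.16 to 0.34). RPL8 was represented by an intron-less entry of 252 bases with 1801 and 1399 reads (0.40). The RPL10 entry (208 and 148 reads, 0.52) and the further RPSA entry (587 and 365 reads, 0.72) were also intron-less pseudogene annotations. RPL3, RPSA at its spliced gene and the S27 entry turned to -0.09, -0.11 and -0.06 where the all-gene median was set to 0, whereas the RPL10 and RPSA copies stayed above 0 under all 4 other scalings and RPL8 ran from 0.0021 to 0.18.

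Entries for the same protein differed from each other, which matters as reads that fit several copies were not counted. For S15a, the intron-less entry on chromosome 11 had 3298 and 4775 reads (-0.50), the entry on chromosome 2 had 874 and 980 (-0.13), and the X chromosome entry stood at -0.51. For L17, the entry on chromosome 5 had 789 and 1137 reads (-0.50) and the pseudogene-annotated entry on chromosome 1 had 636 and 623 (0.06). For S27, the entry on chromosome 4 had 4482 and 5555 reads (-0.28) and that on chromosome 1 had 637 and 528 (0.30, 0.14 to 0.47). Both are described as S27-like in the files, and whether the entry on chromosome 1 is RPS27 or the paralog RPS27L was not resolved. The gap between the lowest and highest entry of a protein was 0.26 to 0.58 on the log2 scale over the 6 protein names with several entries (0.58 for S27, 0.56 for L17), so that a value belongs to an entry and its unique bases rather than to a protein. Which copies were transcribed was not tested.

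Intron-less entries were frequent among the ribosomal proteins, and the median of their ratios was nearer to 0. Of the 82 entries, 38 (46.3%) had a genomic span no more than 50 bases longer than the transcript, against 9.44% of all genes, and 19 (23.2%) were annotated as pseudogenes, against 1.54%. Of the 54 entries, 16 were intron-less, with a median log2 ratio of -0.06, and 38 had an intron, with a median of -0.23 and quartiles of -0.39 and -0.08. The 16 ran from -0.50 to 0.72, and the 38 from -0.78 to 0.30. Among the 38, the counting interval lay below 0 for 29, above 0 for 5 and held 0 for 4. Among the 16, it lay below 0 for 6, above 0 for 3 and held 0 for 7. The subunits were again alike among entries with an intron, with medians of -0.21 for 18 small and -0.23 for 20 large subunit entries.

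Fewer transcript bases were covered by unique reads than in other genes of like depth. With 1000 or more reads in each library, the median coverage of the 38 ribosomal proteins was 88.5% and 87.4%, and that of all 370 genes 96.5% and 96.2%. With at least 100 reads, 8 of 53 ribosomal proteins (15.1%) had under 50% of their bases covered in both libraries, against 4.96% of all genes. Coverage differed between the libraries by a median of 0.23 percentage points over the 53.

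**Figure D3:**
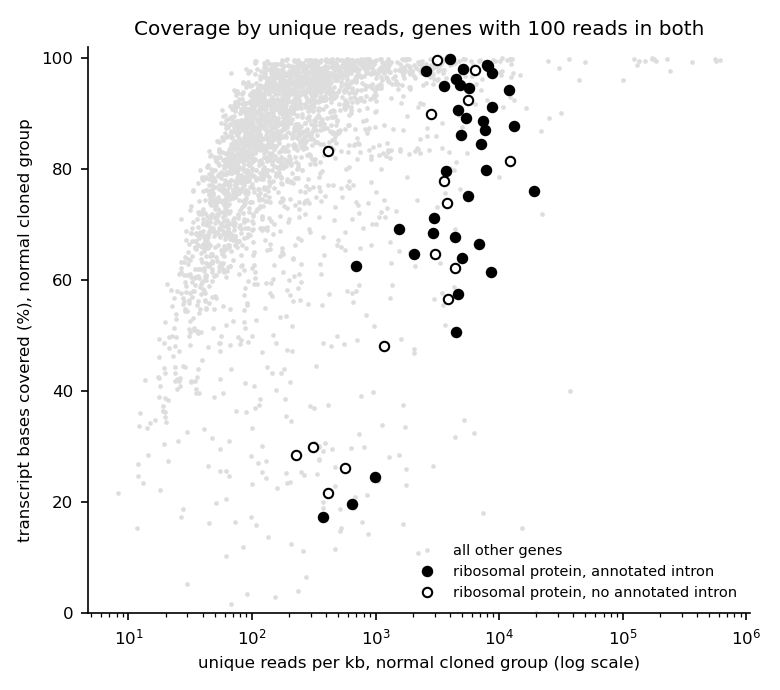
Percent of transcript bases covered by unique reads against unique reads per kilobase (log scale) in the normal cloned group, for genes with 100 or more reads in each library; each point is a gene. At the same reads per kilobase many ribosomal proteins lie below the bulk of the other genes, with and without an annotated intron.

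Ribosomal protein transcripts were short, and the log2 ratio of all genes rose with length. The 54 transcripts had a median length of 743 bases (159 to 1465), against 1621 bases for the 7493 genes. The median log2 ratio of these genes was 0.03 up to 500 bases, 0.06 from there to 750, 0.14 to 1000, 0.19 to 1250, 0.30 to 1500 and 0.50 above. The medians of the 56 ribosomal proteins with as many reads were, in the same order, -0.21 (15 entries), -0.15 (13), -0.25 (20) and -0.15 (5). The class up to 1500 bases held 3 entries, RPL3, RPL4 and RPS4X, at 0.13 to 0.27. Of the 56, 46 were below the median of all genes of their length class. Against a running median of all genes ordered by length they stood at a median of -0.25, with 47 below and 9 above it. Their gap to the median of all genes was 0.52 on the log2 scale without regard to length.

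Among the ribosomal proteins themselves the relation with length depended on whether intron-less entries were included. Over the 54 entries Pearson's r between log2 ratio and log2 length was 0.05 and Spearman's rho 0.06. Over the 38 with an intron they were 0.37 and 0.31, and over all 7493 genes 0.19 and 0.21. These correlations are across genes of the same 2 libraries and describe them only.

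**Figure D4:**
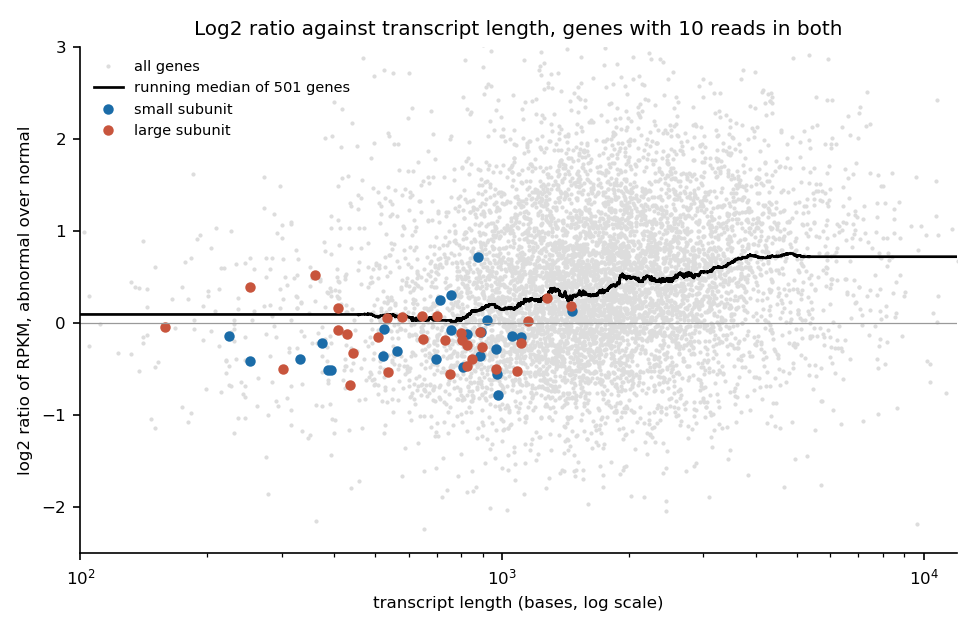
Log2 ratio of RPKM (abnormal to normal) against transcript length (log scale) for genes with 10 or more reads in each library, with the running median; points outside the axes are not drawn. Of 56 ribosomal proteins 47 lie below the line, which runs between 0.031 and 0.29 at their lengths and reaches 0.76 among longer transcripts.

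By their place in the ribosome, the groups at the decoding site and the exit tunnel were mostly lower in the abnormal library, as were the 54 entries. Of the 54, 29 were lower and 6 higher at an FDR of at most 0.001, against 4.65% and 18.5% of all genes. That comparison depends on depth, as 132 of the 370 genes with 1000 or more reads in each library were lower and 152 higher. The groups also hold ribosomal proteins that the names missed; 16 such entries with at least 50 reads had a median log2 ratio of -0.16, with 7 lower and 2 higher at an FDR of at most 0.001. Of 7 small subunit proteins listed for the decoding site, where the mRNA is read, and the parts around it, 6 were matched, all with log2 ratios below 0 (median -0.25), and 3 of them passed that FDR. RPS29 had 2339 and 3134 reads (-0.39), RPS28 had 1207 and 1612 (-0.39), and RPS12, which lies in the beak of the subunit, had 5922 and 6323 (-0.06). Around the exit tunnel, 7 entries for 6 of 8 proteins had a median of -0.47, and 5 were lower and RPL4 higher at that FDR. RPL22, which is also known to bind viral and cellular RNA, had 2185 and 3085 reads (-0.47).

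Of 10 genes chosen from those mutated in Diamond-Blackfan anaemia, a human failure of red cell formation caused by ribosomal protein loss, 7 were matched. Their median log2 ratio was -0.36, and 5 were lower at an FDR of at most 0.001. At that FDR 29 of the 54 ribosomal proteins and 4.65% of all genes were lower, but 132 of the 370 genes with 1000 or more reads in each library. The RPL26 entry among the 7 was a pseudogene annotation, with 27.0% and 26.1% of its bases covered. RPS19, the gene most often mutated, had 3916 and 5568 reads (-0.48, -0.54 to -0.42). RPS26 had 5229 and 6854 reads (-0.36), and RPS10 had 3475 and 4556 (-0.36). RPL5, which binds 5S RNA and restrains MDM2, was the exception with a log2 ratio of 0.71, but it rested on 48 and 30 reads over 11.4% and 5.72% of its bases. RPL11, its partner in the 5S particle, was not matched.

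The acidic stalk, where elongation factors dock, was split. RPLP0 had 14943 and 14545 reads (0.07, 0.04 to 0.10), and RPLP1 had 9378 and 8779 (0.13, 0.08 to 0.17). RPLP2, which pairs with RPLP1 on the stalk, had 3461 and 5099 reads (-0.53, -0.59 to -0.47). RPLP0 and RPLP1 turned below 0 under each of the 4 other scalings (to -0.32 and -0.27 with TMM).

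FAU, which encodes ribosomal protein S30 as a fusion to a ubiquitin-like domain, had 2136 and 3025 reads (-0.47) and was lower at an FDR of at most 0.001. RPS6, the protein that S6 kinases phosphorylate, had 1056 and 980 reads (0.14, 0.01 to 0.26), with 33.8% and 33.9% of its bases covered, and turned below 0 under the same 4 scalings. RPS25, used by some viral and cellular internal ribosome entry sites, had 4362 and 4896 reads (-0.14).

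Paralogs that replace or accompany a standard protein varied in level. RPL26L1 had 99 and 96 reads (0.08, -0.33 to 0.48) and the RPL26 entry, a pseudogene annotation, had 221 and 244 (-0.11, -0.37 to 0.15). RPL10L, an intron-less paralog of RPL10, had 151 and 146 reads (0.08, -0.25 to 0.41), with 13.5% and 28.5% of its bases covered. The RPL22L1 entry, also without an annotated intron, had 1 and 2 reads, at or under the limit of 3 reads that a count of 0 allows. RPL36AL, which the names also missed, had 631 and 766 reads (-0.25), at RPKM values of 205 and 244. RPL3L, the form of RPL3 found in striated muscle, and RPL7L1 and RPL39L were not matched here. RPS27L was not matched by symbol, and the S27 entry on chromosome 1 may be it.

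Other gene lists of the translation machinery had higher medians than the ribosomal proteins in the same libraries. Of the other known TOP mRNAs 14 of 20 were matched, of which 2 were up-regulated (12% of all genes were) and 0 down-regulated. Their median log2 ratio of 0.38 was close to the 0.36 of all genes. This closeness depends on depth, as the 370 genes with 1000 or more reads in each library had a median of 0.02. Most of the TOP list had as many reads, so that it lay above genes of like depth. EEF1A1, the elongation factor that brings aminoacyl-tRNA, had 29012 and 13519 reads (1.13), and EIF4A2, an RNA helicase of translation initiation, had 5253 and 2525 (1.09). EEF1G, another elongation factor subunit, had 11233 and 10071 (0.19). Against genes of like length the TOP list had a median of -0.06, where the 54 ribosomal proteins had -0.23.

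Factors that build ribosomes had a median log2 ratio of 0.77 over 23 of 32 matched genes, with 8 up-regulated, against 12% of all genes, and 0 down-regulated. NCL (nucleolin), with the most reads of the list, had 2072 and 1364 (0.63, below the size limit), and NOP56, of the particle that methylates ribosomal RNA, had 791 and 647 (0.32). GNL3 (nucleostemin) had 1043 and 371 reads (1.52, 1.35 to 1.69). The largest value was that of NOLC1, a nucleolar chaperone, with 1099 and 268 reads (2.07), and MYC, which drives transcription of ribosomal genes, had 434 and 207 (1.10). Against genes of like length the median was 0.28.

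In the mTOR and S6 kinase pathway, 17 entries for 16 of 21 genes had a median of 0.93, or 0.59 against genes of like length, with 7 up-regulated and 1 down-regulated, against 12% and 1.45% of all genes. AKT2, a kinase upstream of mTOR, had 908 and 479 reads (0.95). SESN1, a stress-induced inhibitor of mTORC1, had 1065 and 261 reads (2.06). PDCD4, an inhibitor of EIF4A whose protein S6 kinase marks for destruction, had 419 and 915 reads (-1.10, FDR 3.93e-39). LARP1 had 340 and 117 reads (1.57), and MTOR itself had 491 and 264 (0.93), below the size limit. Activity of the kinase was not measured.

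Mitochondrial ribosomal proteins, which build a separate ribosome, had a median of 0.06 over 50 entries with at least 50 reads, with 2 up-regulated and 0 down-regulated, against 12% and 1.45% of all genes. Their median length of 990 bases was nearer to that of the cytosolic proteins, and their interquartile range of 0.52 was above the 0.42 of the 54. These ranges are not at like depth, as the median half-width of the counting interval was 0.29 for the mitochondrial entries and 0.08 for the 54. Against genes of like length their median was -0.13.

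**Figure D5:**
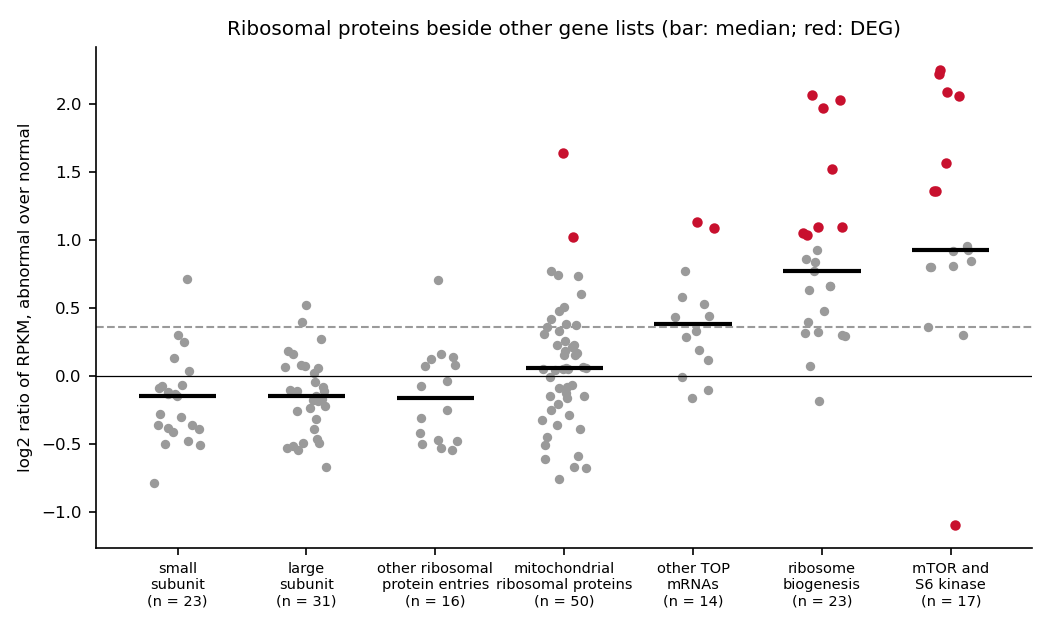
Log2 ratio of RPKM (abnormal to normal) for the ribosomal proteins and other gene lists; points are entries, bars are medians, red points are DEGs and the dashed line is the median of all genes (0.36). The medians run from -0.16 to -0.15 for cytosolic ribosomal proteins through 0.06 and 0.38 to 0.77 for biogenesis factors and 0.93 for the mTOR pathway.

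Markers of other cells moved between the pools and their part in these values was not tested. Summed RPKM was 1356 and 1508 for 4 of 5 fibroblast genes, and 41.4 and 38.9 for 3 of 4 endothelial genes. It was 7.02 and 11.1 for all 5 leukocyte genes, on 63 and 109 reads in sum, and 479 and 693 for 3 of 4 red cell genes. Each leukocyte gene was lower in the abnormal library, but none at an FDR of at most 0.001. LYZ had only 1 and 3 reads, and CD3E 2 and 3. The red cell sum was nearly all HBB (472 and 686). Liver and plasma genes summed to 41.9 and 61.5, with ALB at 0.890 and 19.7. MYOD1 and MYF5, 2 of 3 satellite cell genes, summed to 34.9 and 24.1. Of the cycling genes only TOP2A was matched (0.767 and 2.60), and the adipocyte genes PLIN1 and LEP had 3 and 0 reads in sum.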

How the data were processed

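The authors filtered the reads, mapped them to Sscrofa9 transcripts with SOAPaligner/soap2 allowing 2 mismatches, and deposited the count of unique reads per transcript, not normalized. The deposited RPKM divides that count by transcript length and the library total, and the deposited coverage is the percent of bases with unique reads. Genes absent from a table were taken as 0 reads. Totals were 6.38 and 6.52 M reads.

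Log2 ratios used RPKM, with 0 set to 0.001. The Audic-Claverie test was doubled for a two-sided p, with Benjamini-Hochberg adjustment over 12535 genes. The 95% intervals are by Wilson's method, from the fraction of each gene's reads that the abnormal library gave, and cover counting error only. No model with replicates could be fitted. RefSeq named 31 of the 42 entries with Entrez numbers, and the other 51 took the deposited protein name. Coordinates are from the deposited tables. Entries whose symbol and protein description named different genes were left out of lists. Named genes were the 6 ribosomal proteins with most reads, the 6 highest and 6 lowest ratios with at least 50 reads, paralogs, and functional groups; other lists were named by most reads, and some further genes (the L17 and S15a entries, NOLC1, MYC, LARP1, MTOR, RPS4X) after their values were seen. The members and lists were chosen with earlier results of these data known. Some genes are not reported here by name. Scripts were tested on simulated data. Python 3.11.15, scipy 1.17.1, R 4.3.3 and edgeR 4.0.16 were used. Alternatives were other scalings, a pseudocount, read minimums, length correction, merged or fewer entries and other tests.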

Additional observations from a re-analysis of the deposited data

How the results depend on the processing

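With the median ratio of all genes set to 0, TMM scaling, totals without mitochondrial transcripts and equal GAPDH, the median log2 ratio of the 82 ribosomal proteins was -0.53, -0.57, -0.42 and -0.39. That of the small subunit was -0.51, -0.54, -0.40 and -0.36, and that of the large subunit -0.54, -0.57, -0.42 and -0.39. The number down-regulated was 2, 2, 1 and 0, and the number up-regulated stayed 0. These scalings moved the median of all genes by -0.36, -0.39, -0.25 and -0.21. The log2 ratio of the read share was -0.57, -0.60 and -0.45 under the first 3, and -0.16 without RPS24. Length correction moved the small subunit median to -0.31. The interquartile range of 0.57 over 82 entries fell to 0.41 with at least 10 or 100 reads in both libraries, to 0.36 with 1 row per protein and to 0.40 for Entrez entries only. By log2 ratio alone, without a test, 10 entries passed upward and 7 downward, all with under 50 reads. The other 87 values for the whole group moved by less than the counting half-width (0.16, the median over all 82 entries) or kept their count. For the 54 entries this half-width was 0.08. Among the values so counted, length correction moved the median of the 82 from -0.17 to -0.28, and some small minus large differences changed sign.

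In the same order of scalings RPL7 turned to -0.34, -0.37, -0.23 and -0.20, the L17 entry on chromosome 1 to -0.30, -0.33, -0.19 and -0.15, RPL26L1 to -0.28, -0.32, -0.17 and -0.14, RPL10L to -0.28, -0.31, -0.17 and -0.13, and RPL4 to -0.17, -0.21, -0.061 and -0.028. RPLP0 turned to -0.29, -0.32, -0.18 and -0.14, RPLP1 to -0.23, -0.27, -0.12 and -0.088, and RPS6 to -0.22, -0.25, -0.11 and -0.075. Under the first 2, RPSA turned to -0.11 and -0.14, RPL3 to -0.089 and -0.12, and the S27 entry on chromosome 1 to -0.058 and -0.092. Under length correction RPL7, the L17 entry, RPL4 and RPLP0 turned to -0.23, -0.034, -0.090 and -0.15. Entries with few unique bases and the single library per group limit all values. Entries with at least 50 reads, without intron-less or pseudogene entries, or with other ribosomal proteins added, were alternatives chosen after seeing the data. No paired analysis was possible because each group has 1 library.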
